A study of Mus musculus with 10 samples.

Results

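Sterol and fatty acid synthesis was followed through 30 genes in 10 mouse pancreatic cancer cell lines. The genes were taken by name: 18 enzymes that build cholesterol, 6 regulators or carriers tied to the sterol-regulated transcription factors, and 6 genes of fatty acid synthesis. They are 30 of the 49568 gene symbols in the deposited table, and all 30 were among the 13089 symbols that were tested, those that reached 10 normalized counts in 5 or more lines. The lines carried either of 2 genotypes, with 5 lines each: KPCAf/f (A1693, A1809, A1925, A2441 and A3992) and KPC (A1081, A1620, A1625, A2031 and A2032). In this field KPC names a mouse model of pancreatic cancer that uses a Cre recombinase active in the pancreas, and Af/f is read here as floxed Arid1a, which encodes part of the SWI/SNF machinery that remodels chromatin. The labels give neither the alleles in full, nor the Cre driver, the animals' age or sex, nor whether each line came from a separate mouse. All lines grew in DMEM with 10% fetal bovine serum, which carries lipoproteins, and each gave 1 library of messenger RNA. The p-values below therefore set the difference between genotypes against the spread between lines. They treat the lines as independent, which the labels do not settle. The comparison asks how the 2 genotypes differed in these genes. Values of single lines are always listed in the order just given.

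Cells make cholesterol from acetyl-CoA through the mevalonate pathway, which leads by isoprenoid intermediates to squalene, lanosterol and then cholesterol. When sterols in the endoplasmic reticulum run low, the escort protein SCAP carries the SREBP transcription factors to the Golgi, where they are cut and released to the nucleus. INSIG proteins hold SCAP back when sterols are plentiful. SREBP-2, from Srebf2, acts mainly on the genes of sterol synthesis and uptake, and SREBP-1c, from Srebf1, mainly on those of fatty acid synthesis. SREBPs work beside the promoter-binding factors NF-Y and Sp1. Growing tumour cells draw on both branches for membrane lipids, and both can also take up lipids from serum.

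The promoters of 5 of these genes are printed because the results turn on these genes and their windows hold letters bound by the factors named above. Each is the RefSeq window on GRCm38.p6 from 250 bases before to 50 bases after the transcription start, written 5′ to 3′ on the gene's own strand. They are Hmgcs1 (chr13:119690101-119690400, plus strand), Mvk (chr5:114444019-114444318, plus strand), Msmo1 (chr8:64733529-64733828, minus strand), Srebf2 (chr15:82147019-82147318, plus strand) and Insig1 (chr5:28071162-28071461, plus strand). Capitals mark matches, on either strand, to a sterol element (TCACNCCAC or ATCACNCCA), the E-box CACGTG, the NF-Y box CCAAT and the Sp1 box GGGCGG.
Hmgcs1: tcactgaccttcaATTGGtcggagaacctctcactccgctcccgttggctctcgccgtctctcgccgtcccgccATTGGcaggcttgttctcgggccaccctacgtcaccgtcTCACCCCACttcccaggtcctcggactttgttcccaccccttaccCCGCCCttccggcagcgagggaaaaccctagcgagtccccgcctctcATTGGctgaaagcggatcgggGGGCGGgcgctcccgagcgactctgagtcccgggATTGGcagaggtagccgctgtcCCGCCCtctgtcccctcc
Mvk: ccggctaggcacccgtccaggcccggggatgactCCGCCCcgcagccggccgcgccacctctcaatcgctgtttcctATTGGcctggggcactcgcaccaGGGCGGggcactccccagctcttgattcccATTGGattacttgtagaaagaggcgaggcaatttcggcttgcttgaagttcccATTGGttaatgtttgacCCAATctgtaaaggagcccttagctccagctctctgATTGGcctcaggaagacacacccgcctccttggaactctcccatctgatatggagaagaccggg
Msmo1: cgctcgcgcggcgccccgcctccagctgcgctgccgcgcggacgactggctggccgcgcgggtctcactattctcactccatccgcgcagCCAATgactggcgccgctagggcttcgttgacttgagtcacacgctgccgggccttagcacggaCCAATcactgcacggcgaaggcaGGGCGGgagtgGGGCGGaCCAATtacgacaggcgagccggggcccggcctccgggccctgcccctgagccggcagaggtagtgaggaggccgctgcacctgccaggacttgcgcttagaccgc
Srebf2: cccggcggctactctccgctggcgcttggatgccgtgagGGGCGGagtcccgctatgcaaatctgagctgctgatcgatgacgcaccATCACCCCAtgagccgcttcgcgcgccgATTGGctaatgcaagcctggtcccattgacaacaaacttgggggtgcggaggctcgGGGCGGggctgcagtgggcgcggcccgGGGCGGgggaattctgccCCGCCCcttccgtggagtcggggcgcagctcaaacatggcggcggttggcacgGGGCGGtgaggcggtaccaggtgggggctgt
Insig1: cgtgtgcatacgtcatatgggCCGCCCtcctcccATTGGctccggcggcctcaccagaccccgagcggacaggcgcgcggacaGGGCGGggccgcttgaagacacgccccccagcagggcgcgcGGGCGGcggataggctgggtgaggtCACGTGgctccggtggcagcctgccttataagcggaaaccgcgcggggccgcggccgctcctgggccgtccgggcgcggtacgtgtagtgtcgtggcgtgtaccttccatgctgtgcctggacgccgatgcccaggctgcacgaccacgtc

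A window was found for 24 of the 30 genes, namely 15 enzymes, 5 regulators and 4 fatty acid genes, and none was used for Fdps, Fdft1, Sqle, Stard4, Scd1 and Scd2. The NF-Y box was in 20 of the 24 genes (83.3%), against 41.1% of all 27025 genes with a promoter window of this length. By branch it was in 14 of 15 enzymes, 4 of 5 regulators and 2 of 4 fatty acid genes. The Sp1 box was also in 20 of the 24 genes (83.3%), against 38.2% of all genes with a window. The first form of the sterol element, in 1.44% of all genes with a window, was found in Hmgcs1 alone among the 24. There it lies from position -137 to -129 relative to the start. The second form, in 0.992% of all genes with a window, was found in Srebf2 alone, from -163 to -155. The E-box, in 8.09% of all genes with a window, was in 5 of the 24 (20.8%), including Insig1, where it lies from -101 to -96. The Mvk window holds 5 matches to the NF-Y box. The 2 sterol forms share letters and could overlap, but no 2 matches overlap in the printed windows, and a match is only a match of letters.

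Some properties of these libraries bear on every value that follows. The libraries held 15124888 to 20419830 reads assigned to genes. Arid1a itself had 1785, 1253, 1510.0, 1258 and 1519 normalized counts across KPCAf/f, against 2267, 819.9, 3109, 2459.7 and 1915 across KPC. The KPCAf/f values therefore lay below 4 of the 5 KPC lines but above A1620, and the log2 difference was -0.42 (SE 0.32, adjusted p 0.563) in limma, which did not pass the test. Reads over exons outside a floxed region would still be counted, so this level is a weak check of the labels. KPC line A1620 stood apart by transcript length. On the log2 scale, its deviation from each gene's mean over the 10 lines had a slope of -0.653 for each doubling of the longest annotated transcript. The other KPC lines ran from -0.021 to 0.039 and the KPCAf/f lines from 0.096 to 0.151. These slopes are relative to a mean that includes A1620, so its slope shifts those of the other lines upward. In KPCAf/f line A1693 Pdx1, a pancreas transcription factor, was at 2.70 normalized counts and Cdh1, E-cadherin, at 10.8, so its labelled pancreatic cancer identity is not borne out by these markers. The mean level over 11 epithelial markers, as log2(normalized count + 1), ran from 4.22 in A1693 to 12.41 in A1809 among KPCAf/f lines, and from 8.65 to 10.32 among KPC lines. The mean level over 10 fibroblast markers ran from 6.32 to 8.25 in KPCAf/f lines and from 1.18 to 1.69 in KPC lines, and the 6 of these genes that passed the filter on low counts did so through the KPCAf/f lines. The 4 Y-linked genes were at a mean level of 0 to 0.594 in KPCAf/f lines and of 7.57 to 9.77 in KPC lines, so Y-linked expression and genotype cannot be told apart. Markers of cells rich in lipid synthesis were read as whole lists. The mean level over 10 adipocyte markers ran from 1.98 to 3.38 in KPCAf/f lines and from 2.63 to 3.24 in KPC lines, and Lep and Cfd were at 0 in every line. Of that list Pparg, Cidec and Plin4 were tested, and all 3 had a log2 difference below 0 without being called, among them Pparg at -1.29 (adjusted p 0.28, limma). The mean level over 7 hepatocyte markers ran from 0.626 to 4.09 in KPCAf/f lines and from 2.84 to 3.94 in KPC lines, and Cyp7a1 was at 0 in every line. Of that list Apoa1, Apob and Ttr were tested, and all 3 had a log2 difference below 0 without being called, among them Apob at -2.13 (adjusted p 0.564, limma). The part of these properties in the results was not tested, beyond the values given with them. In bulk RNA from a line, fewer cells of a kind and less RNA per cell cannot be told apart.

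Gene by gene, the sterol branch was lower in KPCAf/f lines in nearly every enzyme, but none of them passed the threshold over all genes in limma. Of the 18 enzymes, 17 had a log2 difference below 0, with a median of -0.75, while 50.8% of all tested genes had one below 0 and their median was -0.011. The same lines were lowest or highest for many of these enzymes, so the 17 signs are not independent observations. Of the 6 fatty acid genes, 4 were below 0, with a median of -0.29, and of the 6 regulators, 4 were, with a median of -0.46. No member passed an adjusted p of 0.05 in limma (0 of 30, against 1.75% of all tested genes), in edgeR (0 of 30, against 1.31%) or in limma-voom (0 of 30, against 0.802%). DESeq2 called 4 members lower in KPCAf/f, Mvk, Fdft1, Msmo1 and Insig1 (against 1.6% of all tested genes). At an unadjusted p under 0.05 in limma, 7 members were lower (against 6.26% of all tested genes) and 1 was higher (against 8.39%). The 7 were Mvk, Fdps, Fdft1, Sqle, Msmo1, Insig1 and Stard4, and the higher one was Insig2. No fatty acid gene was among them. Without A1620, 14 members were lower at an unadjusted p under 0.05 (against 6.88%), 9 of them sterol enzymes and 2 of them fatty acid genes, and again 0 of 30 passed the adjusted threshold in limma (against 1.37%). DESeq2 without A1620 called 7 members lower (against 1.51%), adding Sqle, Srebf2 and Stard4.

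**Figure D1:**
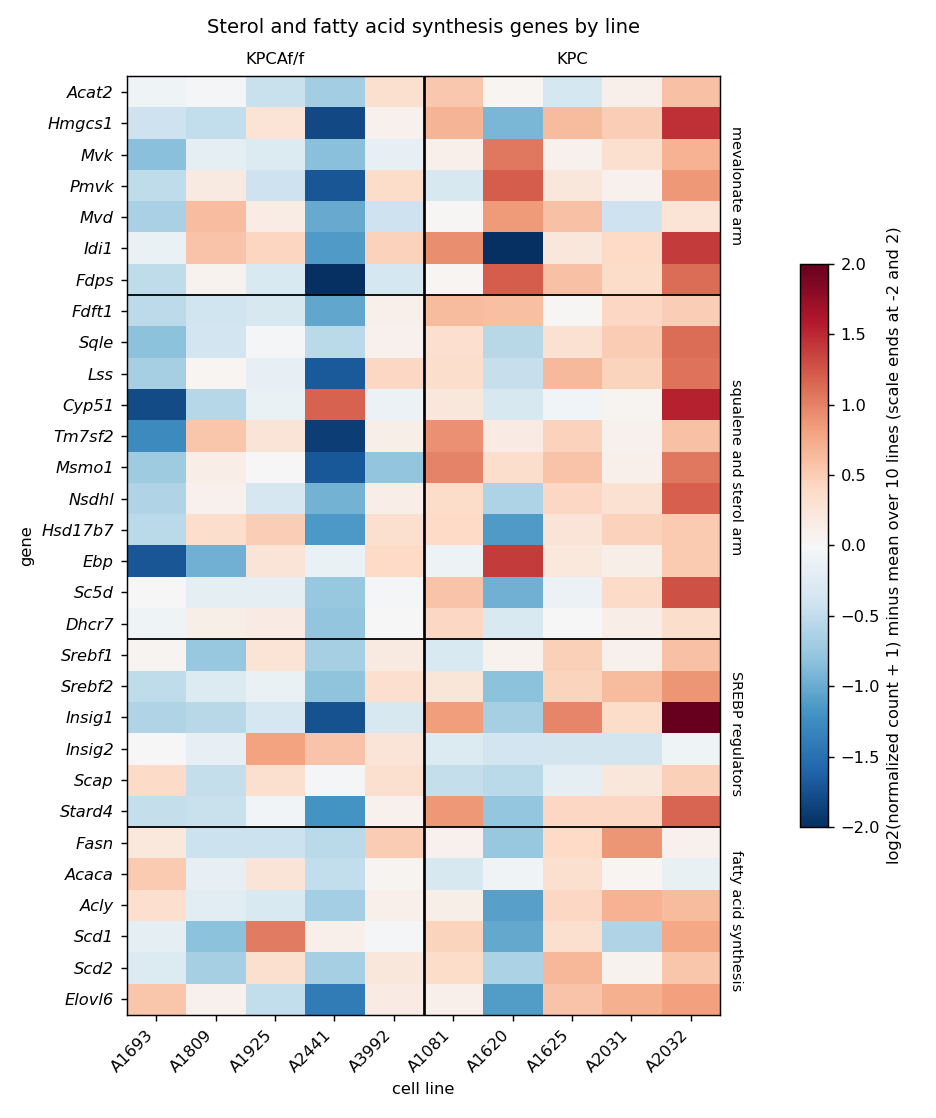
Level of each of the 30 genes (rows, grouped by role) in each of the 10 lines (columns, KPCAf/f at the left and KPC at the right), as log2(normalized count + 1) minus that gene's mean over the lines, on a colour scale that ends at -2 and 2. KPCAf/f line A2441 is the lowest line for 12 of the 18 sterol enzymes, and KPC line A2032 is the highest for 10 of them.

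The 7 members of the mevalonate arm are among the enzymes between acetyl-CoA and farnesyl diphosphate, the last intermediate shared by sterols and prenylated proteins. Their median log2 difference was -0.83. Mvk encodes mevalonate kinase, which adds the first phosphate to mevalonate (chr5:114444269-114460591, GRCm38), and had 526, 832, 777, 526 and 835 normalized counts across KPCAf/f, against 1005, 1955, 991, 1177 and 1526 across KPC. Every KPCAf/f line lay below every KPC line. Mvk was the only one of the 30 members whose genotypes did not overlap in this direction (against 1.69% of all tested genes), and no member did so in the other direction (against 2.84%). It averaged 699 ± 159.8 in KPCAf/f lines and 1331 ± 410.1 in KPC lines (SD, n = 5 each), and its log2 difference in limma was -0.91 (SE 0.25, adjusted p 0.113).

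Fdps encodes farnesyl diphosphate synthase (chr3:89093588-89101959), which joins the isoprene units. It had 361, 540.2, 416, 109 and 401 normalized counts across KPCAf/f, against 530.1, 1184, 770.0, 663 and 1119 across KPC. A2441 was far below the rest, and the genotypes overlapped by a single pair of lines, KPCAf/f A1809 and KPC A1081. Its averages were 366 ± 158 in KPCAf/f lines and 853 ± 286 in KPC lines (SD, n = 5 each), and the log2 difference was -1.33 (SE 0.42, adjusted p 0.166). Hmgcs1 encodes the cytosolic HMG-CoA synthase that commits acetyl units to the pathway (chr13:119690379-119708260), and had 3087, 2920.2, 4974, 1175 and 4383 normalized counts across KPCAf/f, against 6559, 2182, 6415, 5769.8 and 11391 across KPC. KPC line A1620 was the one KPC line inside the KPCAf/f range, and without it the genotypes did not overlap. The log2 difference of Hmgcs1 was -0.94 (SE 0.47, adjusted p 0.385) over all lines, and -1.29 with an adjusted p of 0.179 in limma without A1620. Idi1, the isomerase that makes the second isoprene unit, had 294, 482, 434, 147 and 446 normalized counts across KPCAf/f, against 618, 35.8, 378, 425 and 853 across KPC. Its level in A1620 was 35.8, below every other line, and its log2 difference of 0.08 over all lines became -0.70 without that line.

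The remaining enzymes of the arm did not pass the test either. Acat2, the cytosolic acetoacetyl-CoA thiolase at the head of the pathway, averaged 1652 ± 438 in KPCAf/f lines and 2136 ± 555 in KPC lines (SD, n = 5 each), with a log2 difference of -0.37 (adjusted p 0.503) in limma. Pmvk, phosphomevalonate kinase, averaged 888 ± 410.0 in KPCAf/f lines and 1526 ± 662 in KPC lines, with a log2 difference of -0.83 (adjusted p 0.38). Mvd, the decarboxylase that follows it, averaged 941 ± 435 in KPCAf/f lines and 1302 ± 425 in KPC lines, with a log2 difference of -0.52 (adjusted p 0.494). A1620 was the highest of all 10 lines for Mvk, Pmvk, Mvd and Fdps, whose longest annotated transcripts run from 1194 to 2953 bases. After a correction for transcript length the median log2 difference of the arm was -0.56, and without A1620 it was -0.70.

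**Figure D2:**
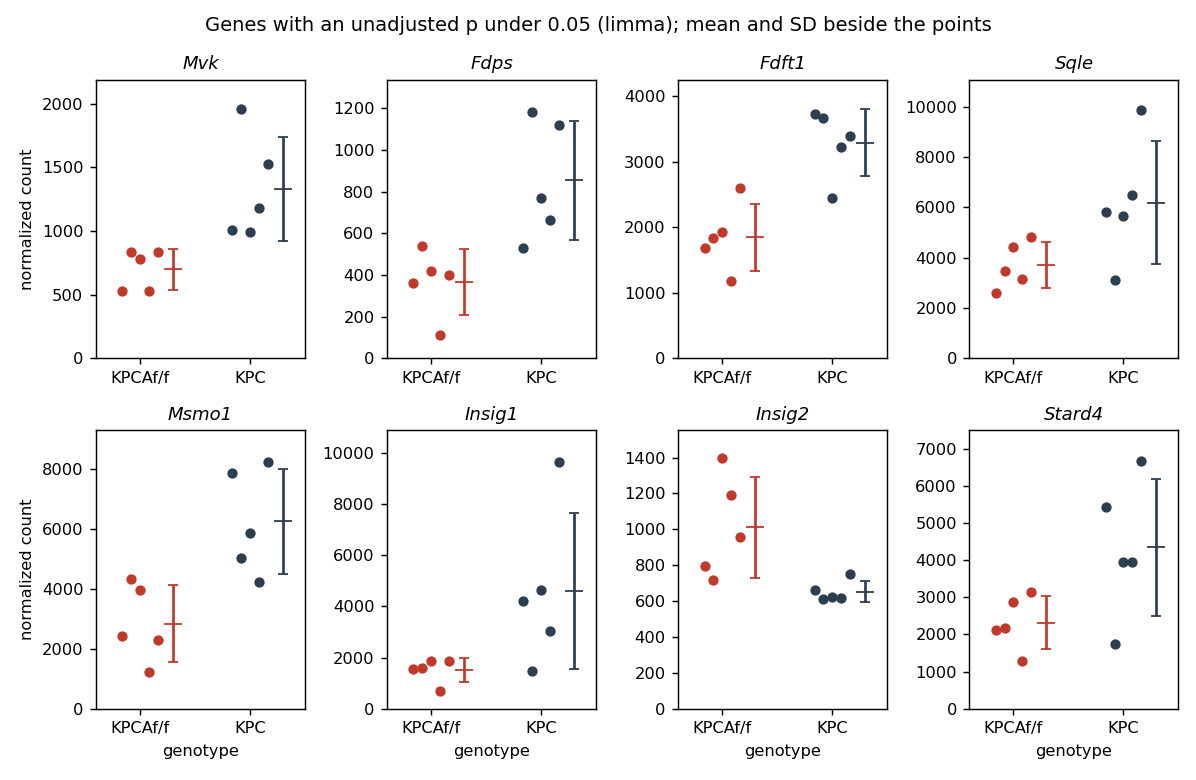
Normalized counts (vertical axis, from 0) in each line for the 8 genes with an unadjusted p under 0.05 in limma, with KPCAf/f lines at the left and KPC lines at the right of each panel. Each point is 1 line, and the bar beside the points is the mean with its SD over 5 lines; only Mvk shows no overlap, and Insig2 is the gene whose KPCAf/f mean is the higher one.

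Past farnesyl diphosphate, all 11 enzymes of the squalene and sterol arm had a log2 difference below 0, with a median of -0.68. Fdft1 encodes squalene synthase, the first step that leads only to sterols (chr14:63145150-63179578), and had 1679.8, 1837, 1932, 1176 and 2600.1 normalized counts across KPCAf/f, against 3720.3, 3667, 2442, 3227 and 3393 across KPC. KPCAf/f line A3992 and KPC line A1625 were the one pair that overlapped. Fdft1 averaged 1845 ± 513 in KPCAf/f lines and 3289.9 ± 515 in KPC lines (SD, n = 5 each), and its log2 difference was -0.86 (SE 0.22, adjusted p 0.0887), the lowest adjusted p in limma of the 30 genes. Without A3992 it was called, with an adjusted p of 0.0472 in limma, and it was then the only member called (against 1.7% of all tested genes). Fdft1 overlaps Ctsb on the other strand. The kit keeps strand, but how strand was set in the counting is not given in the sources used here, and reads of either gene could be counted for the other. The same holds for Hmgcs1, Mvd, Idi1, Lss, Cyp51, Srebf1, Insig2, Scap, Acaca and Elovl6, which also overlap an annotated gene on the other strand. Fdps, Tm7sf2, Srebf1, Srebf2, Acaca, Acly, Scd2 and Elovl6 overlap an annotated gene on the same strand, which a strand setting cannot separate.

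Msmo1 encodes the methylsterol monooxygenase that removes methyl groups from lanosterol's products (chr8:64718139-64733792). It had 2415, 4314, 3943, 1219.7 and 2293 normalized counts across KPCAf/f, against 7865, 5029.6, 5863, 4221 and 8237 across KPC. A1809 was the only KPCAf/f line above the lowest KPC line, A2031. Its averages were 2837 ± 1274 in KPCAf/f lines and 6243 ± 1755 in KPC lines (SD, n = 5 each), and the log2 difference was -1.23 (SE 0.34, adjusted p 0.121). Sqle encodes squalene epoxidase, an oxygen-dependent control point of the pathway (chr15:59315077-59331192). It had 2594, 3486, 4435, 3135 and 4833 normalized counts across KPCAf/f, against 5794, 3097, 5637, 6496 and 9888 across KPC. Apart from A1620 every KPC line was above every KPCAf/f line. The log2 difference of Sqle was -0.68 (SE 0.30, adjusted p 0.318), and without A1620 it was -0.91 with an adjusted p of 0.108 in limma.

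The other steps also had log2 differences below 0. Lss, the lanosterol synthase that closes the sterol rings, averaged 2192 ± 1015 in KPCAf/f lines and 3686 ± 1330.2 in KPC lines (SD, n = 5 each), with a log2 difference of -0.82 (adjusted p 0.367) in limma. Nsdhl, a sterol dehydrogenase of the demethylation steps and one of the 2 X-linked members, averaged 1740.2 ± 529 in KPCAf/f lines and 2873 ± 1241 in KPC lines, with a log2 difference of -0.67 (adjusted p 0.372), and without A1620 its genotypes did not overlap. Ebp, the sterol isomerase and the other X-linked member, averaged 1908 ± 974 in KPCAf/f lines and 3258 ± 1536 in KPC lines, with a log2 difference of -0.86 (adjusted p 0.379). Ebp had 5903 normalized counts in A1620, the highest of all lines. Tm7sf2, a sterol reductase, averaged 424 ± 249 in KPCAf/f lines and 665 ± 157 in KPC lines, with a log2 difference of -0.89 (adjusted p 0.396), and it overlaps Vps51 on the same strand. Hsd17b7, a ketosterol reductase, averaged 845 ± 349 in KPCAf/f lines and 967 ± 336 in KPC lines, with a log2 difference of -0.21 (adjusted p 0.824). Sc5d, the lathosterol desaturase, averaged 2079.7 ± 393 in KPCAf/f lines and 3189 ± 1707 in KPC lines, with a log2 difference of -0.46 (adjusted p 0.568). Dhcr7, the reductase of the last step to cholesterol, averaged 923 ± 211 in KPCAf/f lines and 1073 ± 208 in KPC lines, with a log2 difference of -0.23 (adjusted p 0.655).

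**Figure D3:**
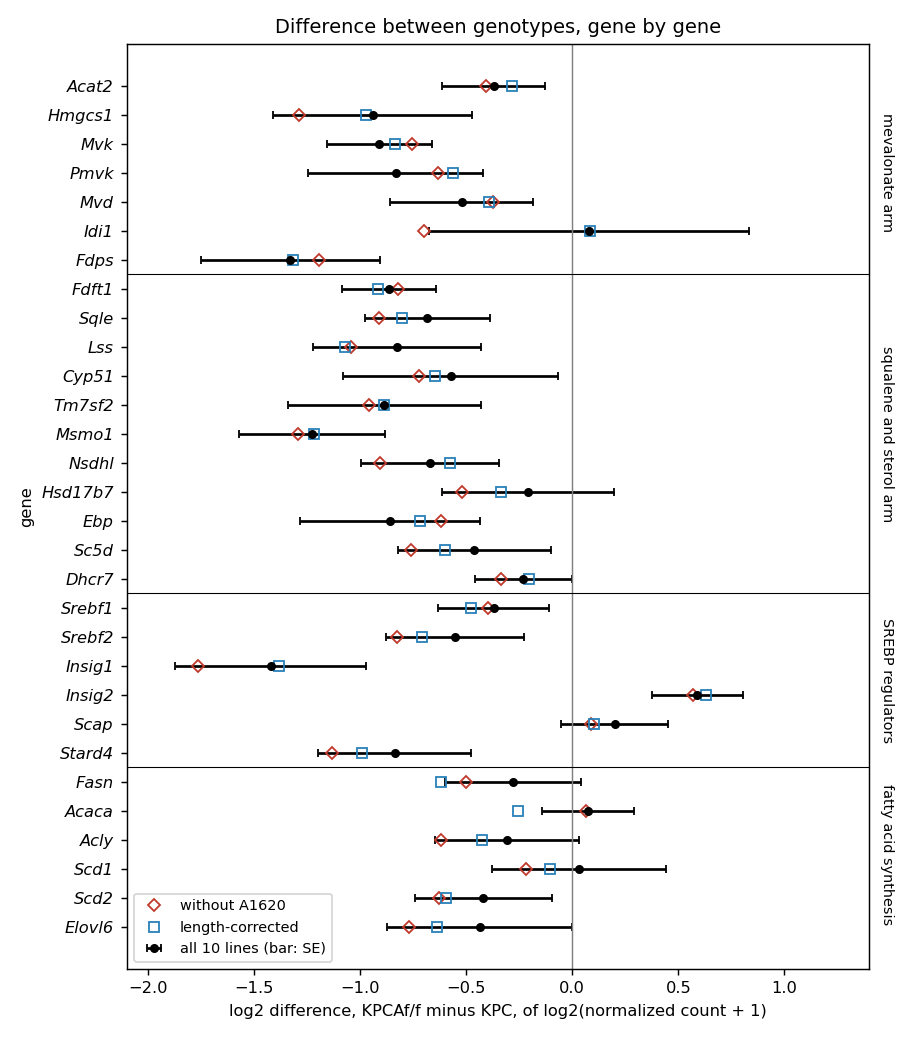
Log2 difference, KPCAf/f minus KPC, of log2(normalized count + 1) for each of the 30 genes, as a black point with its SE over all 10 lines, a red diamond without KPC line A1620 and a blue square after the correction for transcript length. The points of the sterol enzymes lie to the left of 0 except that of Idi1, which moves to -0.70 without A1620, and Insig2 lies furthest to the right at 0.59.

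Cyp51, the lanosterol demethylase (chr5:4081145-4104746), did not follow the other enzymes in A2441. It had 2148, 4984, 6732, 16716 and 6779.9 normalized counts across KPCAf/f, against 8609.8, 5917, 7119, 7645 and 21415 across KPC. A2441, the lowest line for 12 of the 18 enzymes, held the second highest Cyp51 count of all 10 lines. The log2 difference of Cyp51 was -0.57 (SE 0.51, adjusted p 0.61), and it was -0.94 without A2441. The neighbouring genes were then examined, a choice made after these values were seen. From Cdk6, 0.74 Mb below the gene's lower end, to Cdk14, 0.72 Mb above it, 15 of the 16 other tested genes were 2.10 to 3.44 above their median in the other 9 lines in A2441, on the log2 scale. The exception was Rps4x-ps, a pseudogene symbol, at -0.30, and Cyp51 itself was at 1.30. Cdk6, a cyclin-dependent kinase, had 22508 normalized counts in A2441, against 1811 to 3994 in the other 9 lines. Beyond Cdk14 the median over the next 17 tested genes, out to Tmem243 at 5.02 Mb, was 0.40, and 1 of them was above 2. Over the 16 genes from Cdk6 to Cdk14, the median excess over the other lines was 2.79 in A2441 and ran from -0.46 to 0.58 in the other 9 lines. Akap9 overlaps Cyp51 on the other strand. The part of this region in the Cyp51 value was not tested.

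**Figure D4:**
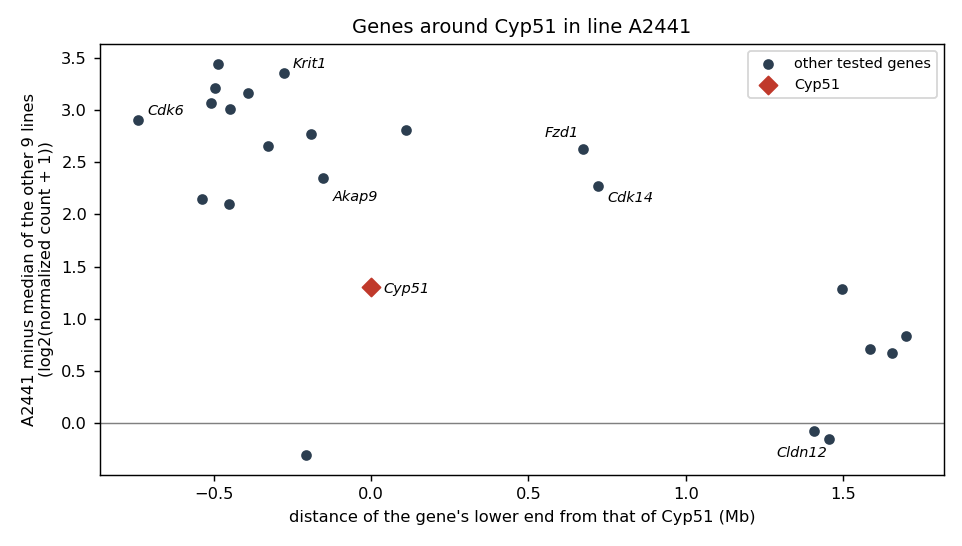
Tested genes around Cyp51, by the distance in Mb of each gene's lower end from that of Cyp51 (horizontal axis), and the level in KPCAf/f line A2441 minus the median of the other 9 lines, as log2(normalized count + 1) (vertical axis). Between Cdk6 and Cdk14, 15 of 16 other genes lie at 2.10 to 3.44, and Cyp51 (diamond) at 1.30.

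Among the regulators the 2 Insig genes differed in opposite directions. Insig1, which holds SCAP in the endoplasmic reticulum and is itself a target of SREBPs (chr5:28071363-28078662), had 1549, 1604, 1871, 705 and 1880.2 normalized counts across KPCAf/f, against 4201, 1493, 4625, 3046 and 9626 across KPC. A2441 was lowest and A2032 highest, and A1620 was the only KPC line within the KPCAf/f range. It averaged 1522 ± 481 in KPCAf/f lines and 4598 ± 3061 in KPC lines (SD, n = 5 each), with a log2 difference of -1.42 (SE 0.45, adjusted p 0.166). Insig2, the paralogue with the same role (chr1:121304353-121332589), had 793, 715, 1396, 1190.5 and 956 normalized counts across KPCAf/f, against 659.8, 613, 620.3, 618 and 754 across KPC. Every KPCAf/f line but A1809 lay above all KPC lines, and the KPC lines sat in a narrow band. Insig2 averaged 1010.2 ± 282 in KPCAf/f lines and 653 ± 59.3 in KPC lines (SD, n = 5 each), with a log2 difference of 0.59 (SE 0.21, adjusted p 0.234). With array weights, which give less weight to libraries that stand apart, limma called Insig1 lower (adjusted p 0.0347) and Insig2 higher (adjusted p 0.0472), where 4.48% of all tested genes were called. Per base of transcript, the ratio of Insig1 to Insig2 was 1.95, 2.24, 1.34, 0.592 and 1.97 in the KPCAf/f lines and 6.37, 2.43, 7.46, 4.93 and 12.8 in the KPC lines. The lowest KPC ratio, in A1620, was above the highest KPCAf/f ratio, in A1809. This ratio was chosen after the values were seen and carries no test.

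Stard4, a carrier that moves sterol between membranes, had 2126, 2176, 2861, 1289 and 3145 normalized counts across KPCAf/f, against 5417, 1738, 3953, 3939 and 6666 across KPC. Without A1620 its genotypes did not overlap, as for Insig1, Mvk, Hmgcs1, Sqle and Nsdhl (6 of 30 members lower with no overlap, against 2.72% of all tested genes). Its log2 difference was -0.84 (SE 0.36, adjusted p 0.318). Srebf2, the gene of the transcription factor SREBP-2, had 5179, 6105, 6771, 4252 and 9324 normalized counts across KPCAf/f, against 8719.6, 4206, 10111, 11466 and 13607 across KPC. A1620 held the lowest Srebf2 count of all lines and the other 4 KPC lines were above all KPCAf/f lines except A3992. Its log2 difference was -0.55 (SE 0.32, adjusted p 0.45) over all lines, and -0.83 with an adjusted p of 0.147 in limma without A1620. Srebf1, the gene of SREBP-1, averaged 3254 ± 1021 in KPCAf/f lines and 4125 ± 1001 in KPC lines (SD, n = 5 each), with a log2 difference of -0.37 (adjusted p 0.53) in limma. Scap, the escort of both factors, averaged 1845 ± 417 in KPCAf/f lines and 1630.1 ± 515 in KPC lines, with a log2 difference of 0.20 (adjusted p 0.728). Per base of transcript, Srebf2 stood to Srebf1 at 1.20, 2.47, 1.34, 1.61 and 1.97 in the KPCAf/f lines and at 2.58, 0.955, 1.73, 2.58 and 2.16 in the KPC lines, with overlap. These are RNA levels, and the cleavage that activates SREBP proteins is not seen in them.

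In the fatty acid branch 4 of 6 genes had a log2 difference below 0, and no gene passed the test. Fasn encodes the fatty acid synthase that builds palmitate (chr11:120805846-120824547), and had 11893, 7626, 7631, 7087 and 14620.5 normalized counts across KPCAf/f, against 10893, 6113, 13535, 19106 and 10941 across KPC. The genotypes overlapped over most of their range. The log2 difference of Fasn was -0.28 (SE 0.32, adjusted p 0.7). Acly, the citrate lyase that supplies acetyl-CoA to both branches, had 8685, 5896, 5564, 4325 and 7427 normalized counts across KPCAf/f, against 7479, 3267, 9170.4, 11210.0 and 10662 across KPC. A1620 had the lowest Acly count of all lines. Its log2 difference was -0.31 (SE 0.34, adjusted p 0.688) over all lines and -0.62 with an adjusted p of 0.227 in limma without A1620. Acaca, the acetyl-CoA carboxylase that makes malonyl-CoA, averaged 1478 ± 388 in KPCAf/f lines and 1381 ± 234 in KPC lines (SD, n = 5 each), with a log2 difference of 0.07 (adjusted p 0.888) in limma. Its sign turned to -0.25 after the correction for transcript length.

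The desaturases and the elongase also overlapped between genotypes. Scd1, the stearoyl-CoA desaturase of liver and fat, had 10075, 6449, 23444, 12251 and 11094 normalized counts across KPCAf/f, against 15580.0, 5653, 14229, 7578 and 19499.8 across KPC. KPCAf/f line A1925 held the highest Scd1 count and KPC line A1620 the lowest. Scd2, its paralogue next to it on chromosome 19, had 34769.8, 26393, 52105, 26535 and 49184 normalized counts across KPCAf/f, against 54302, 27111, 66686, 44134 and 61571 across KPC. Per base, Scd2 exceeded Scd1 in all 10 lines, at ratios of 3.06, 3.62, 1.97, 1.92 and 3.93 in the KPCAf/f lines and 3.09, 4.25, 4.15, 5.16 and 2.80 in the KPC lines. Scd1 had a log2 difference of 0.03 (adjusted p 0.979) and Scd2 one of -0.42 (adjusted p 0.566) in limma. The 2 are close paralogues, and reads shared between them could have been split or lost in the counting. Elovl6, which elongates palmitate to stearate, averaged 2704 ± 1184 in KPCAf/f lines and 3671 ± 1509 in KPC lines (SD, n = 5 each), with a log2 difference of -0.44 (adjusted p 0.655). After the correction for transcript length all 6 fatty acid genes were below 0 with a median of -0.51, and without A1620 5 of 6 were, with a median of -0.56. No fatty acid gene was called in limma under either (0 of 30 members in each fit, against 1.87% and 1.37% of all tested genes).

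A line-level summary set the branches side by side. For each line, the median over a branch of each gene's deviation from its own mean over the 10 lines was taken, on the log2 scale. For the 18 sterol enzymes this was -0.57, 0.06, -0.09, -1.02 and 0.10 in the KPCAf/f lines, against 0.39, -0.13, 0.24, 0.32 and 0.97 in the KPC lines. Apart from A1620, every KPC line was above every KPCAf/f line. The means were -0.31 ± 0.48 in KPCAf/f and 0.36 ± 0.40 in KPC lines (SD, n = 5 each), a difference of -0.66. For the 6 fatty acid genes the medians were 0.27, -0.33, -0.03, -0.60 and 0.14 in the KPCAf/f lines, against 0.11, -0.89, 0.40, 0.39 and 0.59 in the KPC lines. A1620, a KPC line, was the lowest of all, and the genotypes overlapped. The means were -0.11 ± 0.35 in KPCAf/f and 0.12 ± 0.59 in KPC lines (SD, n = 5 each), a difference of -0.23. The size of that difference rested on the setting and on single lines. It was -0.46 after the correction for transcript length, -0.47 without A1620 and -0.58 without both A1620 and A1693, but -0.063 with quantile scaling, -0.12 without A2441 and -0.13 without A2032. In the same order, the difference of the sterol enzymes was -0.72, -0.80, -0.71, -0.61, -0.52 and -0.52. The difference between the branches was not tested. Line A1693 had the most unlike branches among the KPCAf/f lines: it was below the mean over lines for all 18 sterol enzymes and above it for 4 of 6 fatty acid genes.

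The same lines stood at the extremes for many sterol enzymes. A2441 was the lowest of the 10 lines for 12 of 18 enzymes, and A1693 for 4. A2032 was the highest for 10 of 18 enzymes and for 5 of 6 regulators. Without A1693 the line-level sterol difference was -0.61 and the fatty acid difference was -0.32, on the log2 scale. A1620 was the highest line for 5 enzymes, Mvk, Pmvk, Mvd, Fdps and Ebp, and the lowest for Idi1 and Sc5d.

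The 7 lists of genes around the 2 pathways that follow were read from the same fit. Sterol transport and efflux held one of the 2 calls that limma made in them. Abca1, the transporter that hands cell cholesterol to apolipoprotein A-I and a target of the oxysterol receptor LXR, had 3656, 47.5, 1645, 1754 and 649 normalized counts across KPCAf/f, against 1.89, 3.97, 3.91, 15.6 and 42.3 across KPC. Every KPCAf/f line was above every KPC line, although A1809 was close to A2032. Abca1 rose in KPCAf/f lines by 6.52 on the log2 scale (SE 1.13, adjusted p 0.0134, limma). It was not called by limma-voom (adjusted p 0.204), by edgeR without A1620 (adjusted p 0.0664), nor by limma without both A1620 and A1693 (adjusted p 0.0766). It was the only gene called of 19 tested in that list (against 1.36% of all tested genes called higher), with 5 higher and 2 lower at an unadjusted p under 0.05. Abca1 passed the filter on low counts only because of its KPCAf/f lines, so its being tested was not independent of this difference. The fibroblast markers given above were higher in the same lines, and their part in this difference was not tested.

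Others of that list did not pass in limma. DESeq2 called 4 genes of the list higher and 0 lower. It called 1.6% of all tested genes lower, and its share called higher is not given here. Mylip, a ubiquitin ligase that degrades the LDL receptor and an LXR target, had 348, 14.7, 189, 56.2 and 26.4 normalized counts across KPCAf/f, against 0, 0, 5.87, 3.35 and 11.3 across KPC (adjusted p 0.0565, limma). No lines overlapped. Among KPC lines only A2032 reached 10 normalized counts, so Mylip too passed the filter on low counts through the KPCAf/f lines. Its being tested was therefore not independent of this difference. Abcg1, which exports cholesterol to lipoproteins, averaged 365 ± 425 in KPCAf/f lines and 27.5 ± 18.9 in KPC lines (SD, n = 5 each), with a log2 difference of 3.27 (adjusted p 0.0998). Lrp1, a lipoprotein receptor, averaged 3729 ± 2306 in KPCAf/f lines and 1165 ± 653 in KPC lines, with a log2 difference of 1.75 (adjusted p 0.126).

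**Figure D5:**
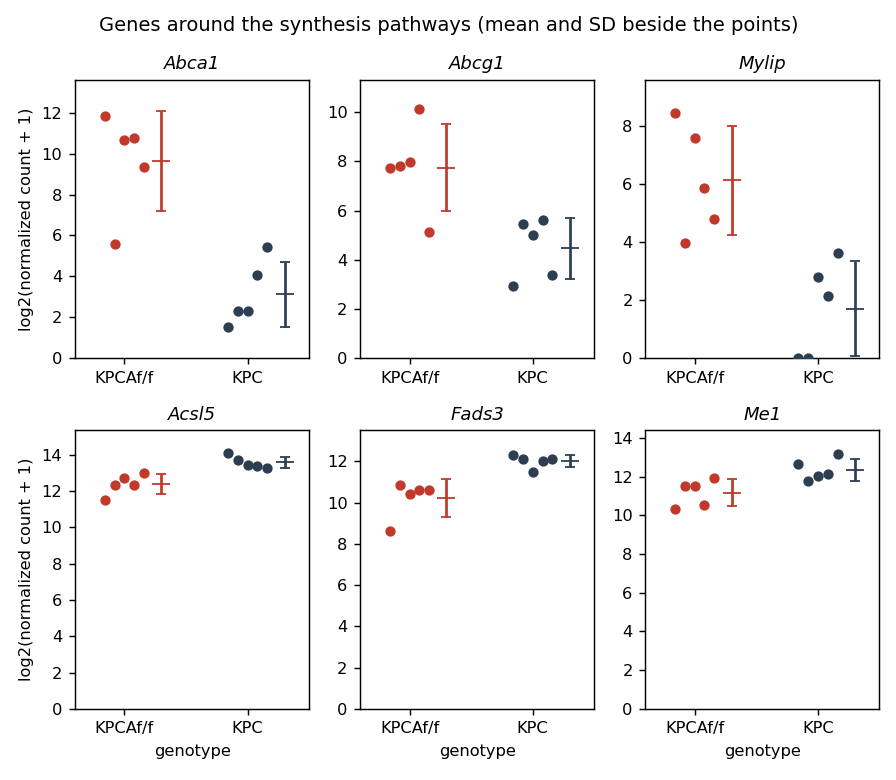
Levels of 6 genes around the synthesis pathways as log2(normalized count + 1) (vertical axis, from 0), with KPCAf/f lines at the left and KPC lines at the right of each panel; each point is 1 line, with the mean and SD over 5 lines beside the points. In limma Abca1 passed the test as higher in KPCAf/f lines and Fads3 as lower, and the other 4 genes did not pass.

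The list of fatty acid elongation and desaturation, without the members, held the other call. Fads3, a member of the front-end desaturase family, had 389.8, 1851, 1359.9, 1563 and 1545 normalized counts across KPCAf/f, against 5034, 4396, 2892, 4206 and 4515 across KPC. The genotypes did not overlap, and A1693 was the lowest line. Fads3 fell in KPCAf/f lines, with a log2 difference of -1.80 (SE 0.39, adjusted p 0.0434, limma), and was the only gene limma called of 13 tested (against 0.39% of all tested genes called lower). In limma it stayed called without A1693 or A1809, but not with any 1 of the other 8 lines left out (adjusted p 0.0585 to 0.103). It was not called by edgeR (adjusted p 0.0527) or by limma-voom (adjusted p 0.066). DESeq2 called 1 gene of this list lower (against 1.6% of all tested genes) and 1 higher, with no share over all genes beside the latter. Elovl4, the elongase of very long chains, averaged 87.0 ± 115 in KPCAf/f lines and 5.91 ± 2.85 in KPC lines (SD, n = 5 each), with a log2 difference of 3.03 (adjusted p 0.0631). With so low a KPC mean, Elovl4 too passed the filter on low counts through the KPCAf/f lines.

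The other 5 lists held no call in limma. DESeq2 called 1 gene lower in each of the lists of activation and esterification, SREBP processing and the isoprenoid branch (against 1.6% of all tested genes). It called 2 genes of fatty acid oxidation higher, with no share over all genes beside them, and none that supply acetyl-CoA and NADPH. Their counts below stand against all tested genes, of which 50.8% had a log2 difference below 0, and 6.26% were lower and 8.39% higher at an unadjusted p under 0.05. Of the 11 genes that supply acetyl-CoA and NADPH, 10 had a log2 difference below 0, with a median of -0.32, and 2 were lower at an unadjusted p under 0.05. Me1, the malic enzyme that yields NADPH for fatty acid synthesis, averaged 2508 ± 1118 in KPCAf/f lines and 5524 ± 2344 in KPC lines (SD, n = 5 each), with a log2 difference of -1.18 (adjusted p 0.161). Slc25a1, the citrate carrier that feeds Acly, averaged 2462 ± 1029.7 in KPCAf/f lines and 3577 ± 1009 in KPC lines, with a log2 difference of -0.60 (adjusted p 0.391). Of the 17 tested genes that activate or esterify fatty acids, 12 were below 0 and 1 was lower at an unadjusted p under 0.05. That one was Acsl5, an acyl-CoA synthetase, which had 2953, 5134, 6740.5, 5261 and 8267 normalized counts across KPCAf/f, against 17427, 13498, 11124, 10705 and 10051 across KPC. Its genotypes did not overlap, and its log2 difference was -1.20 (SE 0.28, adjusted p 0.0605) in limma.

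Of the 15 tested genes that process or turn over SREBPs, 6 were below 0, and 4 were lower and 1 higher at an unadjusted p under 0.05. The smallest p-values in limma were those of Creb3l3 and Ubxn8, whose levels are not given here. Mid1ip1, which promotes acetyl-CoA carboxylase assembly and is X-linked, averaged 1584 ± 675 in KPCAf/f lines and 3027 ± 917 in KPC lines (SD, n = 5 each), with a log2 difference of -0.97 (adjusted p 0.144). Fbxw7, which marks nuclear SREBPs for degradation, averaged 405 ± 95.7 in KPCAf/f lines and 637 ± 129 in KPC lines, with a log2 difference of -0.65 (adjusted p 0.216). Of the 12 genes of the isoprenoid branch, which draw on farnesyl diphosphate for prenyl groups, ubiquinone and dolichol, 7 were below 0, with a median of -0.07, and 1 was lower and 1 higher at an unadjusted p under 0.05. Ggps1, the geranylgeranyl diphosphate synthase, averaged 569 ± 75.2 in KPCAf/f lines and 380.3 ± 131 in KPC lines, with a log2 difference of 0.63 (adjusted p 0.284). Pdss2, a subunit that makes the side chain of ubiquinone, averaged 288 ± 71.2 in KPCAf/f lines and 526 ± 157 in KPC lines, with a log2 difference of -0.86 (adjusted p 0.156). Of the 18 tested genes of fatty acid oxidation, 11 were below 0, with a median of -0.17, and 1 was lower and 2 higher at an unadjusted p under 0.05.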

How the data were processed

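RNA of 10 cell lines was sequenced as stranded messenger RNA libraries, per the labels' protocols. The deposited signal values are gene counts that the authors divided by DESeq2 size factors, per the name of the deposited table and the submitters' processing notes. The submitters' processing notes name DESeq2 1.14.1, the aligner STAR 2.5.2b, the trimmer Trimmomatic 0.36 and featureCounts from Subread 1.5.0p3, and the builds GRCm38.p5 and mm9 without their roles; the strand setting is not given in the sources used here. Size factors of 0.7549 to 1.2218 turned 100.0% of values into whole reads within 0.001 read. No 2 libraries were alike (lowest chi-square per degree of freedom 60.6).

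The 13089 genes that reached 10 normalized counts in 5 or more lines were tested with limma 3.58.1 (intensity trend, two-sided, R 4.3.3) on log2(normalized count + 1), with Benjamini-Hochberg adjustment over all of them and a threshold of 0.05. Fold changes on this scale understate those of low genes. Labels give no batch. edgeR 4.0.16, DESeq2 1.42.0 and limma-voom were run on the recovered reads as alternatives, beside other pseudocounts, filters and scalings, array weights, a lowess correction (span 0.3) for the longest GENCODE M21 transcript (47240 symbols, 95.3%) and lines left out. The genotype of each line came from its label, and lines were numbered within a genotype in accession order. All members are accounted for; of the surrounding lists, the genes called and up to 4 others by p could be named, besides the markers given as checks. The members and lists were chosen with earlier results of these data known. Each library held 15124888 to 20419830 reads; the precision given is the spread between lines. Gene coordinates are GENCODE M21 (GRCm38), and promoters are RefSeq GRCm38.p6.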

Additional observations from a re-analysis of the deposited data

Results flagged for a closer look

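In a group of 5 lines, a line was singled out when its gap to the nearest other line as a share of the group's whole range was above Dixon's 95% critical value. Chance alone singles out about 1 in 20 groups, and 60 groups were examined. Cyp51 was at 21415 normalized counts in KPC line A2032, where the other KPC lines had 5917 to 8609.8, a gap of 0.826 of the range. Hsd17b7 was at 380.2 in KPC line A1620, where the other KPC lines had 999 to 1201, a gap of 0.754. Insig1 was at 705 in KPCAf/f line A2441, where the other KPCAf/f lines had 1549 to 1880.2, a gap of 0.718.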

How the results depend on the processing

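Across 26 other settings, 741 of 780 values of the 30 genes kept their direction and their side of the threshold, 14 newly passed it and 25 turned sign, all in 4 genes. The number of sterol enzymes called was 0 in limma, 3 with DESeq2, 4 with DESeq2 without A1620, and 0 to 1 when each line was left out in turn (1 without A3992). The number of regulators called was 0 in limma, 2 with array weights, 1 with DESeq2 and 3 with DESeq2 without A1620. No fatty acid gene was called in any setting. Idi1, at 0.08, was -0.42 with array weights, -0.35 with edgeR, -0.36 with DESeq2, -0.65 without A1620 and A1693, and -0.66, -0.66, -0.66 and -0.70 with edgeR, DESeq2, limma-voom and the length correction without A1620; it ran from -0.70 to 0.44 when lines were left out. Hsd17b7, at -0.21, was 0.051 without A2441, and its lowest value with a line left out was -0.52. Acaca, at 0.07, was -0.25 with the length correction, -0.057 without A1620 and A1693, -0.048 without A1693, and from -0.05 to 0.20 when lines were left out. Scd1, at 0.03, was -0.11 with the length correction, -0.17 without A1620 and A1693, and -0.17, -0.17, -0.22 and -0.24 with edgeR, DESeq2, limma-voom and the length correction without A1620; it ran from -0.22 to 0.24 when lines were left out. The causes were not tested. The branch differences kept their direction in every setting that gives values per line, which edgeR, DESeq2 and limma-voom do not. The tests without A1620 by the count tools and by the length correction were added after the data were seen. No paired analysis was possible because the labels give nothing that pairs a KPCAf/f line with a KPC line. Depth limits the lowest values most, such as the 1.89 normalized counts of Abca1 in A1081.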
